A study of Mus musculus with 10 samples.

Results

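The genes described are 34 immediate early, heat shock and feedback genes, chosen by symbol from a list, and all 34 have a row among the 45906 gene rows of the count table. All 34 passed the filter on low counts and stand among the 17409 genes tested, with between 1828 reads (Cebpd) and 166093 reads (Jun) over the 10 libraries. RNA came from immune cells isolated from dissected striatum and substantia nigra of male C57BL/6 mice. In 5 libraries the mice had been injected with an AAV1/2 virus (a recombinant adeno-associated virus) carrying A53T haSyn, human α-synuclein with the A53T mutation found in familial Parkinson disease (A53T), and in 5 with the same kind of virus as an Empty Vector (EV). Injection was at 10 to 12 weeks of age in both groups and isolation 16 weeks later, at 26 to 28 weeks. The labels give the same protocol for both groups, in which tissue was digested with collagenase for 30 min at 37 °C and spun over Percoll, a density gradient. Whether the groups were also alike in the order or yield of the preparations was not tested. No cell sort is named in the labels. No label names the promoter that drives the transgene, and no uninjected or undigested tissue was analysed here.

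Immediate early genes are transcribed within minutes of a stimulus from factors already present in the cell. Many encode transcription factors such as the Fos and Jun proteins, which pair to form AP-1, and others encode inhibitors that shut the same signals off again. Heat shock chaperones refold damaged proteins. Warm enzymatic digestion of brain is known to switch on many of these genes in microglia, the resident macrophages of the brain, before RNA is extracted, while in intact brain several of them mark recently active neurons.

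The libraries held 12386305 to 21780086 counts. The transgene had 1520, 2223, 10, 1397 and 1217 reads in A53T replicates 1 to 5, against 0, 1, 0, 0 and 0 reads in EV replicates 1 to 5, so the library labelled A53T replicate 3 held few transgene reads. Microglial RNA was summarised as a score, the mean log2 CPM of 18 homeostatic microglial genes, none of which is among the 34 (CPM, counts scaled to library size after TMM normalisation). The score was 7.30, 4.31, 8.41, 8.71 and 5.99 in A53T replicates 1 to 5, against 4.59, 6.10, 5.44, 6.97 and 7.36 in EV replicates 1 to 5. The groups overlapped (exact permutation p = 0.389, 2-sided), and the A53T libraries included both the lowest score, in replicate 2, and the highest ones, in replicates 3 and 4. In bulk RNA, more microglia and more RNA per microglial cell cannot be told apart. The fraction was not microglia alone. All 15 neuron markers were read, summing to 404 to 3045 CPM in A53T and 1663 to 3179 CPM in EV, as were all 11 astrocyte markers (1443 to 13404 CPM in A53T and 5320 to 12933 CPM in EV) and all 10 endothelial markers (249 to 603 CPM in A53T and 280 to 868 CPM in EV). Reads of salivary gland markers were also present (3.79 to 368 CPM in A53T and 4.44 to 354 CPM in EV), and mitochondrial ribosomal RNA took 10.9 to 47.7% of counts in A53T and 33.4 to 50.9% in EV. The part of these other sources in the slopes was not tested beyond the fits named below.

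Of the 34 genes, 31 rose with the microglial score across the libraries and 3 did not pass the test, namely Egr3, Fosl2 and Hsph1. The slope, fitted with the group as a second term, gives the change in log2 CPM for a score higher by 1, so a slope of 1 is a change in proportion to microglial RNA and a slope of 0 is no change. Positive slopes were called (edgeR quasi-likelihood test, Benjamini-Hochberg adjusted p under 0.05) for 15.3% of all genes tested, and negative ones, which none of the 34 had, for 15.4%. The median slope was 0.79 over the 34 genes and 0.018 over all genes tested. None of the 34 genes was called between A53T and EV, with adjusted p-values of at least 0.957, and none was called at equal microglial score. The 34 genes together took 0.877, 0.120, 1.85, 2.40 and 0.248% of all counts in A53T replicates 1 to 5, against 0.120, 0.286, 0.317, 0.560 and 0.799% in EV replicates 1 to 5. The 34 genes were chosen with earlier results of these libraries known, and that they move with microglial genes as a list was already seen there. The slopes and the levels of the single genes are described here.

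**Figure D1:**
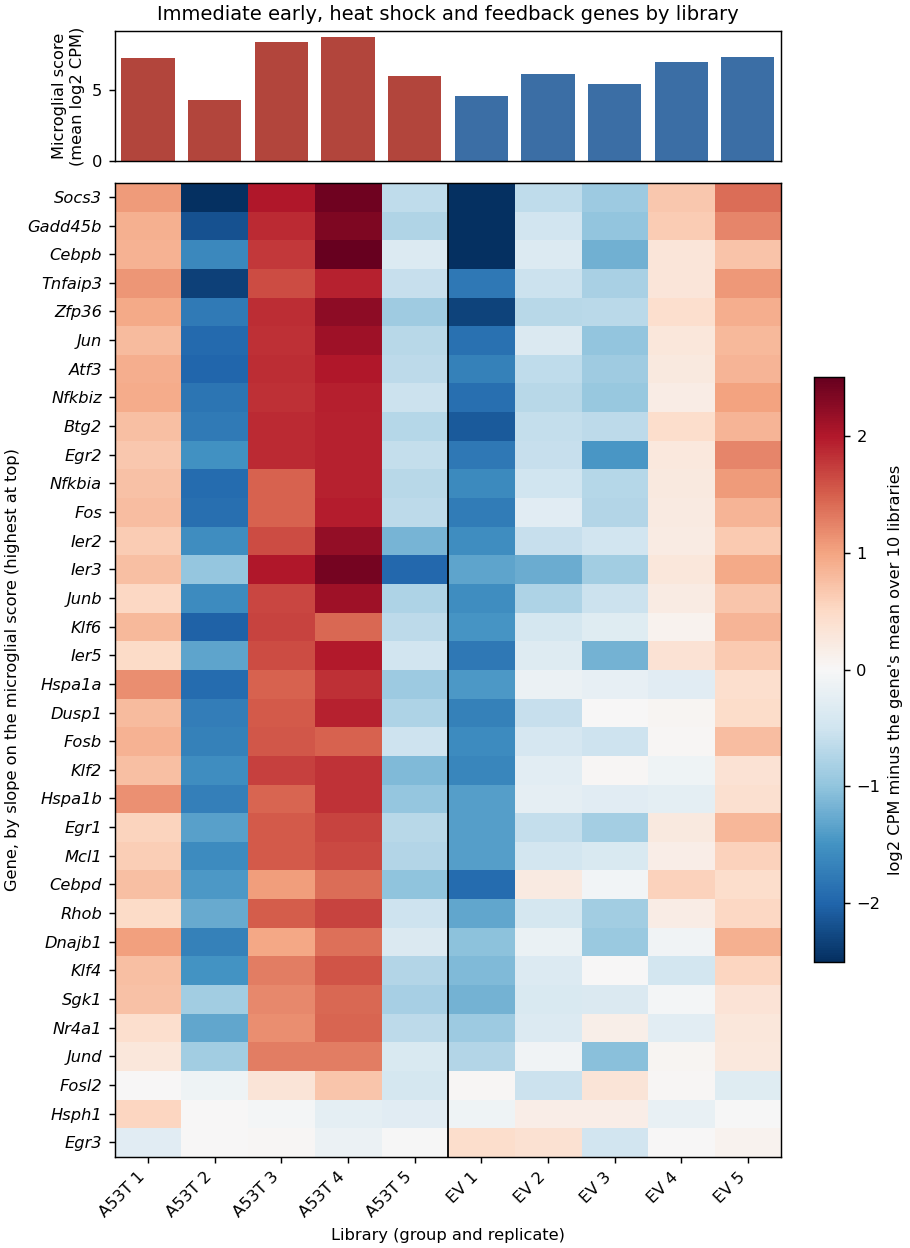
Levels of the 34 genes (rows, ordered by slope on the microglial score) in the 10 libraries (columns), as log2 CPM minus the gene's mean, under bars of the microglial score (mean log2 CPM). A53T replicates 3 and 4, with scores of 8.41 and 8.71, are the reddest columns for most rows, A53T replicate 2 and EV replicate 1, with scores of 4.31 and 4.59, are the bluest, and the rows of Fosl2, Hsph1 and Egr3 at the bottom are nearly flat.

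Among the Fos and Jun genes, which encode the partners in AP-1, 5 of 6 rose with the microglial score and Fosl2 did not pass. Fos, the founding member, lies on chromosome 12, 85473890 to 85477274, plus strand (GRCm38.p6, here and below). It was at 309, 49.2, 502, 711 and 115 CPM in A53T replicates 1 to 5, against 54.0, 149, 109.7, 213 and 327 CPM in EV replicates 1 to 5. Its lowest levels were in A53T replicate 2 and EV replicate 1 and its highest in A53T replicates 3 and 4, and the groups overlapped. The slope of Fos was 0.87 ± 0.055 (SE, 95% interval 0.75 to 0.99), with an edgeR adjusted p of 4.51e-07. Jun (chromosome 4, 95049036 to 95052222, minus strand), the main partner of Fos, was at 952, 144, 1940.0, 2394 and 340.0 CPM in A53T replicates 1 to 5, against 152, 426, 278, 671 and 967 CPM in EV replicates 1 to 5. Per kilobase of exon Jun had the highest level of the 34 genes, averaging 259 CPM per kb over the 10 libraries against 120 for Fos, and its slope was 0.94 ± 0.057 (SE, 95% interval 0.81 to 1.06), adjusted p = 3.38e-07. The Fos relative Fosb and the Jun relative Junb had slopes of 0.76 ± 0.063 (SE) and 0.82 ± 0.071 (SE).

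Jund, a Jun family gene that many resting cells express, had the lowest slope among those that passed. It was at 241, 108, 478, 477 and 151 CPM in A53T replicates 1 to 5, against 119, 185, 95.7, 203 and 238 CPM in EV replicates 1 to 5 (chromosome 8, 70697739 to 70700616, plus strand). The highest levels were again in A53T replicates 3 and 4, but the highest library stood only 5.00 times above the lowest, against 14.5 times for Fos and 16.7 times for Jun. The slope of Jund was 0.49 ± 0.064 (SE, 95% interval 0.35 to 0.63), adjusted p = 0.000158, so a score higher by 1 went with a 1.41-fold higher Jund level, against 1.82-fold for Fos and 1.91-fold for Jun.

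Fosl2, a Fos relative without the transactivation domain of Fos, did not pass the slope test. It was at 46.2, 42.1, 56.7, 73.6 and 33.6 CPM in A53T replicates 1 to 5, against 46.7, 31.6, 57.0, 46.5 and 37.2 CPM in EV replicates 1 to 5 (chromosome 5, 32136472 to 32157840, plus strand). The groups overlapped and the range over all libraries was 2.33-fold. The slope was 0.10 ± 0.077 (SE, 95% interval -0.066 to 0.27), adjusted p = 0.359, and its interval lay wholly below that of Fos.

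The promoters of Fos and Fosl2 are shown because these relatives had such different slopes. They are RefSeq sequences of GRCm38.p6, 250 bases before to 50 after the start of transcription, written 5′ to 3′ on the gene's strand (chr12:85473640-85473939, plus, for Fos, and chr5:32136222-32136521, plus, for Fosl2). Capitals mark matches to the kappa B motif, the site of NF-kB.
Fos: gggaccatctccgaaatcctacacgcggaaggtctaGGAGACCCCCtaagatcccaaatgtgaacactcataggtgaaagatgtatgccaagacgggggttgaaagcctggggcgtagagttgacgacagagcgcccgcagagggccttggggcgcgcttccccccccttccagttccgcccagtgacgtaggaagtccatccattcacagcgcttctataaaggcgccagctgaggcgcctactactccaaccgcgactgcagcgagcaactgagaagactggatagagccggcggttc
Fosl2: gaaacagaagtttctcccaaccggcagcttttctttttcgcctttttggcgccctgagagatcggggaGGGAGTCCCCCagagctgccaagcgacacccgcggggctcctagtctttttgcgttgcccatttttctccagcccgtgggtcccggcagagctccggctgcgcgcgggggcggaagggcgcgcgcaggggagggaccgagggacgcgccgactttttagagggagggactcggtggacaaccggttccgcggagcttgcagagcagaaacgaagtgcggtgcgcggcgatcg
Both windows held a kappa B match, starting 214 bases before the start in Fos and in 2 overlapping copies from 182 and 181 bases before it in Fosl2. Windows were found for 29 of the 34 genes (none for Egr1, Egr3, Cebpd, Nfkbiz and Ier2). On either strand, the kappa B motif was present for 10 of the 29 and for 9.55% of the 27025 genes with a window. Among the 29, it was present for 9 of the 27 that passed the slope test and for 1, Fosl2, of the 2 that did not. The cyclic AMP response element TGACGTCA was present for 2 of 29 (Btg2 and Dusp1) and 2.03% of all genes, the AP-1 site TGANTCA for 1 (Tnfaip3) and 8.97%, and the CArG box bound by serum response factor for 2 (Egr2 and Zfp36) and 1.81%. Only full matches inside these windows were counted. Sites farther away or with a changed base were missed, so a gene not named may still carry one. The shares take no account of base composition or of the number of windows per gene. A match describes letters in a window and not binding.

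Among the Egr genes, zinc finger transcription factors induced by growth factor and synaptic signals, Egr1 and Egr2 rose with the microglial score and Egr3 did not pass. Egr1 was at 499, 134, 989.6, 1099 and 211 CPM in A53T replicates 1 to 5, against 130.5, 225, 190.0, 405 and 609 CPM in EV replicates 1 to 5. It was highest in A53T replicates 3 and 4 and lowest in EV replicate 1 and A53T replicate 2, with overlap between the groups. Its slope was 0.74 ± 0.061 (SE, 95% interval 0.60 to 0.87), adjusted p = 3.52e-06, and that of Egr2 was 0.90 ± 0.081 (SE). Egr3 (chromosome 14, 70077317 to 70082613, plus strand), known in neurons as a target of synaptic activity, was at 71.7, 87.7, 89.5, 78.7 and 86.9 CPM in A53T replicates 1 to 5, against 118, 113, 63.0, 88.7 and 92.5 CPM in EV replicates 1 to 5. Its libraries lay within 1.87-fold of each other, the highest were EV replicates 1 and 2, and the groups overlapped. The slope of Egr3 was -0.035 ± 0.062 (SE, 95% interval -0.17 to 0.099), adjusted p = 0.718. Its interval excludes a slope above 0.099, and on the neuron score its slope was 0.084 ± 0.11, SE (adjusted p = 0.591).

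**Figure D2:**
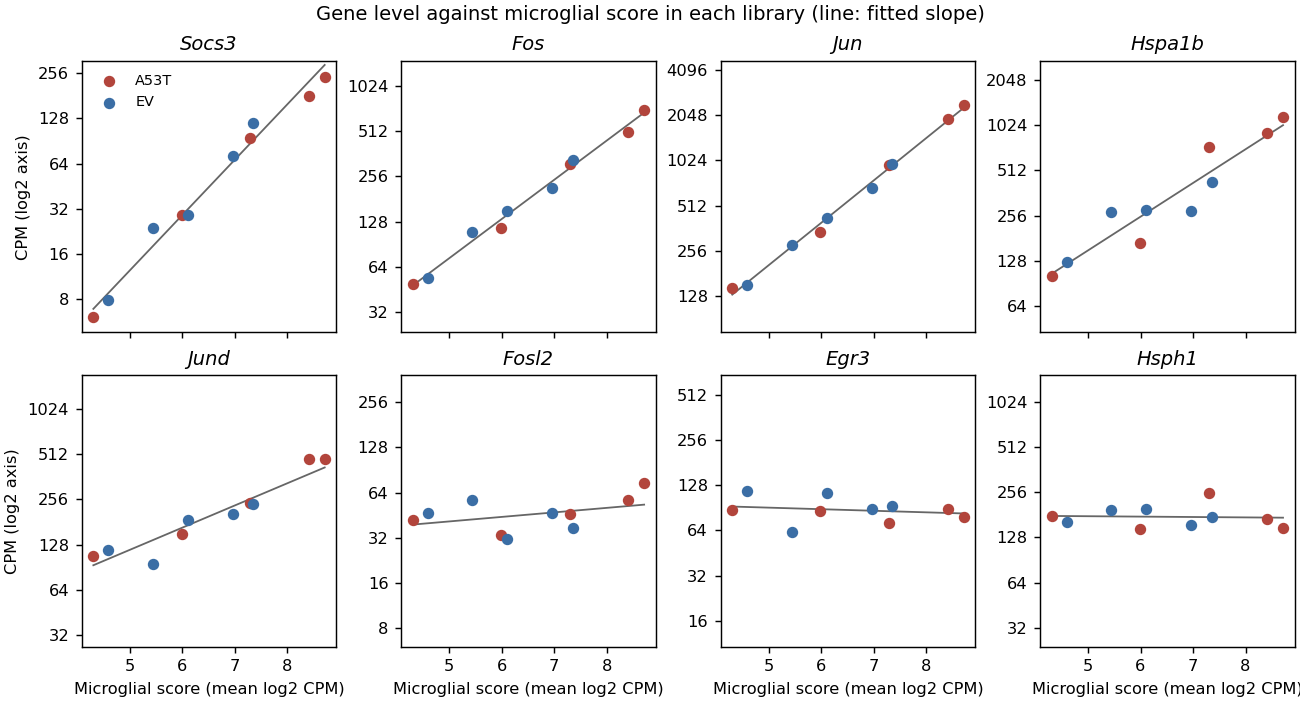
Level in CPM (log2 axis spanning the same number of doublings in each panel) against the microglial score for 8 genes, 1 point per library, A53T in red and EV in blue, with a line of the fitted slope. Socs3, Fos and Jun fall close to their lines, Jund rises less steeply, and the lines of Fosl2, Egr3 and Hsph1, which did not pass the test, are nearly flat.

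Of the other transcription factors, Atf3, a stress-induced factor of the ATF and CREB family, had a slope of 0.92 ± 0.056 (SE), and the orphan nuclear receptor Nr4a1 one of 0.54 ± 0.086 (SE). The Krüppel-like factor genes Klf2, Klf4 and Klf6 all passed, with slopes of 0.63 ± 0.092 (SE) for Klf4 and 0.81 ± 0.075 (SE) for Klf6. Klf2 (chromosome 8, 72319062 to 72321654, plus strand), best known from endothelial cells under flow, was at 129, 26.4, 251.9, 268 and 36.1 CPM in A53T replicates 1 to 5, against 24.8, 64.0, 78.4, 71.8 and 99.5 CPM in EV replicates 1 to 5. It was highest in A53T replicates 3 and 4, and EV replicate 3, whose score of 5.44 is the third lowest, held more Klf2 than EV replicate 2 or 4. The slope of Klf2 was 0.75 ± 0.10 (SE, 95% interval 0.53 to 0.97), adjusted p = 0.000232. None of the 10 endothelial markers was called on the score (median slope 0.064), but 8 of the 10 were highest in EV replicate 3, where they summed to 868 CPM, against at most 603 CPM, in A53T replicate 4, elsewhere. Their part in the level of Klf2 was not tested. Cebpb, which encodes a factor of myeloid cells and acute inflammation, was at 45.4, 8.16, 84.8, 149 and 19.7 CPM in A53T replicates 1 to 5, against 3.87, 19.7, 10.9, 30.7 and 41.0 CPM in EV replicates 1 to 5 (chromosome 2, 167688915 to 167690432, plus strand). It spanned 38.5-fold, from 3.87 CPM in EV replicate 1 to 149 CPM in A53T replicate 4, with a slope of 0.97 ± 0.074 (SE, 95% interval 0.81 to 1.13), adjusted p = 1.60e-06. Its relative Cebpd had a slope of 0.69 ± 0.11 (SE). The last 322 bases of Cebpd overlap Spidr on the opposite strand (1243 reads against 1828), and the strand setting of the counting is not given here.

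All 11 feedback and early response genes rose with the microglial score, with slopes of 0.77 (Dusp1) to 1.22 (Socs3). Socs3, which blocks cytokine signalling through JAK kinases, was at 94.4, 6.14, 179, 242 and 29.0 CPM in A53T replicates 1 to 5, against 7.95, 29.1, 24.0, 71.7 and 119 CPM in EV replicates 1 to 5 (chromosome 11, 117966079 to 117970336, minus strand). Socs3 spanned 39.4-fold, the widest range of the 34 genes, and ranked the 10 libraries in the same order as the score, as did Fos, Jun and Nfkbia. Its slope of 1.22 ± 0.068 (SE, 95% interval 1.08 to 1.37), adjusted p = 2.03e-07, was the only one of the 34 whose interval lay wholly above 1, which 0.35% of all genes tested had. Gadd45b, a stress response gene that restrains apoptosis, was at 32.2, 3.84, 63.4, 87.3 and 10.3 CPM in A53T replicates 1 to 5, against 2.97, 12.4, 8.79, 27.0 and 40.5 CPM in EV replicates 1 to 5 (chromosome 10, 80930091 to 80932204, plus strand). It was lowest in EV replicate 1 and highest in A53T replicate 4, and its slope was 1.10 ± 0.070 (SE, 95% interval 0.94 to 1.25), adjusted p = 4.56e-07.

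The inhibitors of NF-kB, the transcription factor of inflammatory stimuli, rose with slopes between 0.87 and 0.97. Nfkbia, which holds NF-kB in the cytoplasm, was at 167, 26.4, 277, 382 and 62.3 CPM in A53T replicates 1 to 5, against 33.2, 70.9, 60.9, 118 and 209 CPM in EV replicates 1 to 5 (chromosome 12, 55489409 to 55492647, minus strand). Its slope was 0.87 ± 0.057 (SE, 95% interval 0.75 to 0.997), adjusted p = 4.96e-07. Tnfaip3, an enzyme that edits ubiquitin chains upstream of NF-kB, was at 374, 34.4, 537, 662 and 116 CPM in A53T replicates 1 to 5, against 50.5, 119, 98.4, 213 and 366 CPM in EV replicates 1 to 5 (chromosome 10, 19000910 to 19015410, minus strand), with a slope of 0.97 ± 0.067 (SE, 95% interval 0.82 to 1.12), adjusted p = 8.68e-07. Both genes were lowest in the libraries of lowest score, A53T replicate 2 and EV replicate 1, and highest in A53T replicates 3 and 4. Nfkbiz, a nuclear cofactor of NF-kB, had a slope of 0.91 ± 0.059 (SE).

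The promoters of Nfkbia (chr12:55492598-55492897, minus strand) and Tnfaip3 (chr10:19015361-19015660, minus strand, the farther upstream of its 2 windows) are shown because both genes are textbook NF-kB targets that followed the score. The source, length and motif are as for Fos, and capitals mark kappa B matches and, in Tnfaip3, the AP-1 site.
Nfkbia: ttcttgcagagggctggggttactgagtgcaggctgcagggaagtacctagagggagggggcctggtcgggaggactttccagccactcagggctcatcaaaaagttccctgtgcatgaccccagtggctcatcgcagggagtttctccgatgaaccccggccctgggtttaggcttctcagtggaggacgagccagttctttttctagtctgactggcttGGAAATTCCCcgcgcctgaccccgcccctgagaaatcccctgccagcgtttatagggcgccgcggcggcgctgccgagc
Tnfaip3: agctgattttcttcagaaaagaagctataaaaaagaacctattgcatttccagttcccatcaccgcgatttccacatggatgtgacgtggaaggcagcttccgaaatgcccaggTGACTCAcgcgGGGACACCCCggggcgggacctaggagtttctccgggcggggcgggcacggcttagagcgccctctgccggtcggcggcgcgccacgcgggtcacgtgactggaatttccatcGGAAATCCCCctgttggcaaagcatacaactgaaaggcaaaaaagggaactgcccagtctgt
The Nfkbia match began 29 bases before the start. The Tnfaip3 window held the AP-1 site from 136 bases before the start and kappa B matches from 125 and 12 bases before it.

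Dusp1, a phosphatase that switches off MAP kinases, was at 123, 21.4, 204, 268 and 41.6 CPM in A53T replicates 1 to 5, against 22.1, 47.6, 71.2, 73.8 and 97.2 CPM in EV replicates 1 to 5 (chromosome 17, 26505591 to 26508472, minus strand). Its order followed the score except that EV replicate 3 stood above EV replicate 2 and A53T replicate 5, and A53T replicate 1 above EV replicate 5. The slope of Dusp1 was 0.77 ± 0.092 (SE, 95% interval 0.57 to 0.97), adjusted p = 7.54e-05. Zfp36, which destabilises cytokine mRNAs, had a slope of 0.97 ± 0.077 (SE), and Btg2, an antiproliferative cofactor of mRNA decay, one of 0.91 ± 0.065 (SE). The early response genes Ier2, Ier3 and Ier5 had slopes of 0.83 ± 0.080 (SE), 0.83 ± 0.14 (SE) and 0.79 ± 0.058 (SE). Ier3 was the least certain call of the 31. Its adjusted p of 0.000909 became 0.0599 without A53T replicates 3 and 4.

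Of the 4 heat shock genes, Hspa1a, Hspa1b and the co-chaperone Dnajb1 rose with the microglial score and Hsph1 did not pass. Hspa1a (chromosome 17, 34969359 to 34972156, minus strand) and Hspa1b (chromosome 17, 34956429 to 34959238, minus strand) both encode the inducible Hsp70 chaperone. Their coding sequences in GENCODE M21 match at 99.6% of aligned bases, with 8 mismatches and a gap of 3 bases, so reads of these neighbours cannot be assigned to one or the other with certainty, and the read ratio of Hspa1a to Hspa1b stayed between 0.851 and 1.04. Hspa1a was at 731, 86.0, 909, 1159.8 and 174 CPM in A53T replicates 1 to 5, against 121, 293, 285, 267 and 438 CPM in EV replicates 1 to 5. Hspa1b was at 729.9, 101, 904, 1158 and 168 CPM in A53T replicates 1 to 5, against 126, 281, 272, 277 and 432 CPM in EV replicates 1 to 5. Both were highest in A53T replicates 4, 3 and 1, and A53T replicate 1 held 731 CPM of Hspa1a where EV replicate 5, with nearly the same score (7.30 and 7.36), held 438. The slope was 0.78 ± 0.11 (SE, 95% interval 0.55 to 1.01) for Hspa1a, adjusted p = 0.000220, and 0.75 ± 0.099 (SE, 95% interval 0.53 to 0.96) for Hspa1b, adjusted p = 0.000191. Dnajb1, the partner that hands substrates to Hsp70, had a slope of 0.67 ± 0.079 (SE).

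Hsph1, a large chaperone that releases nucleotide from Hsp70, was at 253, 177, 169.7, 148 and 145 CPM in A53T replicates 1 to 5, against 162, 197, 196, 155 and 173 CPM in EV replicates 1 to 5 (chromosome 5, 149616843 to 149636498, minus strand). It was highest in A53T replicate 1, the other libraries of both groups overlapped, and its 1.75-fold range was the narrowest of the 34 genes. The slope was -0.0087 ± 0.066 (SE, 95% interval -0.15 to 0.13), adjusted p = 0.937. On the neuron score its slope was 0.071 ± 0.11, SE (adjusted p = 0.668).

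The promoters of Hspa1b (chr17:34959189-34959488, minus strand) and Hsph1 (chr5:149636287-149636586, minus strand, 1 of 2 overlapping windows) are shown because both are heat shock genes while their slopes differed. Source and length are as above. The starts of transcription of both Hsph1 windows lie inside the counted gene, whose 5′ end is at base 149636498. Capitals mark a kappa B match in Hspa1b and, in Hsph1, a heat shock element, searched on both strands as 3 alternating blocks of GAA and TTC, each 2 bases apart.
Hspa1b: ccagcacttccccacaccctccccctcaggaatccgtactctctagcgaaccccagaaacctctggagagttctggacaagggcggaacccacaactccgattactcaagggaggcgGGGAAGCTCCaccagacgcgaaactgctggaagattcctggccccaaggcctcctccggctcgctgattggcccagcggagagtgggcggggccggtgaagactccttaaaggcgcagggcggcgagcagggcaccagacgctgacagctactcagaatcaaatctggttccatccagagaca
Hsph1: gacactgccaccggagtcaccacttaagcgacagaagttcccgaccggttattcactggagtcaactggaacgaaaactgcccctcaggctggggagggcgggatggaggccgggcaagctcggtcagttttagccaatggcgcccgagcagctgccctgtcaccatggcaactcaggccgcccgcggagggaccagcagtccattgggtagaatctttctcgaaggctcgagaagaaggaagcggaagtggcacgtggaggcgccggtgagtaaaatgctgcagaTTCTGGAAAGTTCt
The heat shock element was present for 1 of the 29 genes, Hsph1, where it began 36 bases after this start of transcription, and for 0.662% of all genes. Imperfect elements were not counted, so the search does not show that Hspa1a, Hspa1b or Dnajb1 lack one. The kappa B match in Hspa1b began 133 bases before the start, as it did in Hspa1a.

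The last 3 genes all passed with slopes whose intervals lay below 1. They were Mcl1, an antiapoptotic BCL2 relative (0.73 ± 0.063, SE), Rhob, a small GTPase induced by stress (0.68 ± 0.053, SE), and Sgk1, a kinase induced by glucocorticoids (0.54 ± 0.069, SE).

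Among the 31 genes that passed, the slope interval lay wholly below 1 for 18, included 1 for 12 and lay above 1 for 1. The first of these was found for 10.4% of all genes tested. Slopes of the 18 microglial genes lay between 0.76 and 1.16, and they centre near 1 because the score is the mean of these genes. Slopes of 10 pan-myeloid genes, which are not part of the score, lay between 0.73 and 1.15. The genes with the shallowest slopes that passed, Jund, Nr4a1, Sgk1 and Klf4 (0.49 to 0.63), thus had estimates below every gene of both lists. So did Dnajb1, Rhob, Cebpd and Mcl1 (0.670 to 0.732). Intervals could overlap, as for Klf4 (0.43 to 0.83) and the pan-myeloid gene Coro1a (0.60 to 0.87), and differences of slope between genes were not tested. Of the 34 genes, 31 were called in each of the 10 fits that left out a library, 30 without A53T replicates 3 and 4 together, and 31 with a term for the 5 libraries with over 100 reads of the salivary gland gene Bpifa2. Both the score and each gene's level are shares of the same library.

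**Figure D3:**
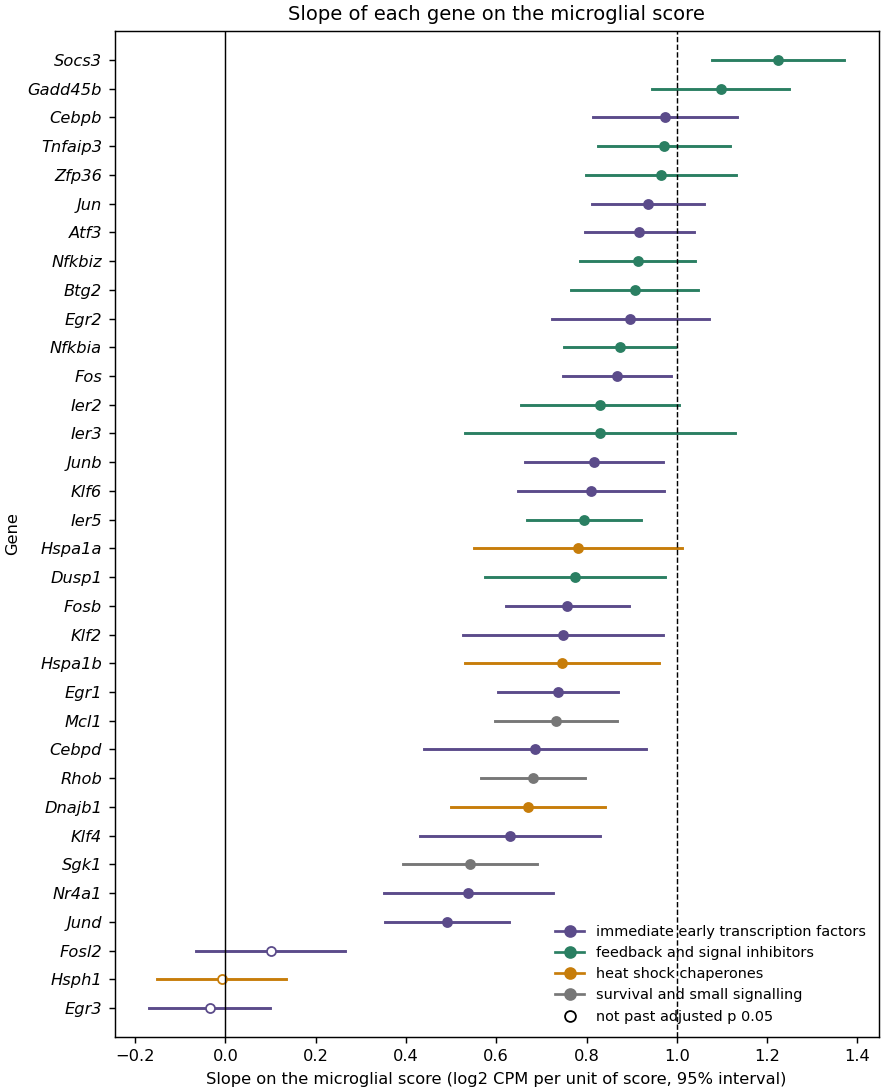
Slope on the microglial score (log2 CPM per unit of score) with its 95% interval for the 34 genes, coloured by role, with open circles for genes not past an adjusted p of 0.05 and lines at 0 and 1. Feedback genes (green) lie at 0.77 to 1.22, Socs3 is the only gene wholly right of 1, and Fosl2, Hsph1 and Egr3 lie across 0.

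The rank and linear correlations gave the same division. Over the 10 libraries, Pearson's r with the score was 0.883 to 0.998 for the 31 genes (permutation test, adjusted p of at most 0.00684 over all genes tested) and Spearman's rho was 0.842 to 1.00 (adjusted p of at most 0.0221). The r was -0.25 for Egr3, -0.069 for Hsph1 and 0.44 for Fosl2 (permutation adjusted p = 0.615, 0.905 and 0.328), and rho was -0.079, -0.16 and 0.27 (permutation adjusted p = 0.895, 0.762 and 0.583). Positive r were called for 17.3% of all genes tested and positive rho for 14.5%. With A53T replicates 2 and 4 left out, whose scores lie farthest from the median, r was 0.834 to 0.997 for the 31 genes, and with group means removed it was 0.871 to 0.997. Without A53T replicates 3 and 4 the lowest r of the 31 genes was 0.738, for Ier3.

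The comparison of A53T with EV asks whether human A53T α-synuclein changes these genes in brain immune cells. The log2 fold change was positive for 33 of the 34 genes, with a median of 1.04, beside 52.8% positive and a median of 0.027 over all genes tested. None was called, and neither was any other gene (edgeR quasi-likelihood test, 0 of 17409 genes, 0% called). The genes not called included the transgene itself (log2 fold change 11.9, edgeR adjusted p = 0.105), so a gene not called may still differ. At an unadjusted p under 0.05 the test held 378 genes, 2.17% of those tested, and 0 of the 34. DESeq2 called 1 gene, the transgene, and limma on the rlog values called 0 (598 and 448 genes at an unadjusted p under 0.05). Of the 34, 1 gene, Cebpb, had an unadjusted p under 0.05 with DESeq2 (adjusted p = 0.959) and 0 with limma. The log2 fold change was 0.98 ± 0.66 (SE) for Fos, 1.21 ± 0.73 (SE) for Jun, 0.91 ± 0.61 (SE) for Egr1 and 1.08 ± 0.62 (SE) for Dusp1. It was 1.53 ± 0.75 (SE) for Cebpb, the highest of the 34, 1.13 ± 0.87 (SE) for Socs3 and 1.14 ± 0.61 (SE) for Hspa1b. The genes that did not pass on the microglial score had the smallest differences, with -0.20 ± 0.20 (SE) for Egr3, 0.013 ± 0.21 (SE) for Hsph1 and 0.20 ± 0.24 (SE) for Fosl2. The A53T and EV libraries overlapped for all 34 genes, beside 0.431% of genes tested whose groups did not overlap.

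Without 2 of the libraries the direction turned for most of the genes given with full values. Without A53T replicates 3 and 4 the median log2 fold change of the 34 genes was -0.076, and those of Fos, Jun and Nfkbia were -0.11, -0.060 and -0.21. Those of Cebpb, Hspa1a, Hspa1b, Tnfaip3 and Hsph1 stayed positive, at 0.20, 0.24, 0.26, 0.045 and 0.12. Without A53T replicate 4 alone the median was 0.64, and without A53T replicate 3, the library with few transgene reads, it was 0.76. These 2 libraries also had the highest microglial scores, the lowest neuron scores (5.18 and 4.58) and the lowest shares of mitochondrial ribosomal RNA (15.1% and 10.9%). The group difference at equal microglial score is given below. Leaving the ribosomal RNA rows out of the counts did not turn the sign of the median. The part of the neuron score and of the ribosomal share itself in the group difference was not tested.

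At equal microglial score the differences between A53T and EV lay between -0.33 and 0.43 on the log2 scale. The median log2 fold change of the 34 genes was 0.025, with 19 positive and 15 negative, beside 45.7% positive over all genes tested. It was -0.069 ± 0.14 (SE) for Fos, 0.048 ± 0.15 (SE) for Jun, -0.26 ± 0.17 (SE) for Socs3, 0.064 ± 0.26 (SE) for Hspa1b and -0.17 ± 0.18 (SE) for Egr3. None of the 34 was called, and 1 of all genes tested was (0.00574%), the transgene itself, with an edgeR adjusted p of 0.0196. 8 of the 10 fits that left out a library called 0 genes. Cebpb stood highest at 0.43 ± 0.19 (SE), with an unadjusted p of 0.041, the only p under 0.05 among the 34 (2.71% of all genes tested), and an adjusted p of 1.00. Cebpd stood lowest at -0.33 ± 0.30 (SE). The SEs of the 34 genes at equal score ran from 0.14 to 0.39, which limits the size of difference that could be detected.

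**Figure D4:**
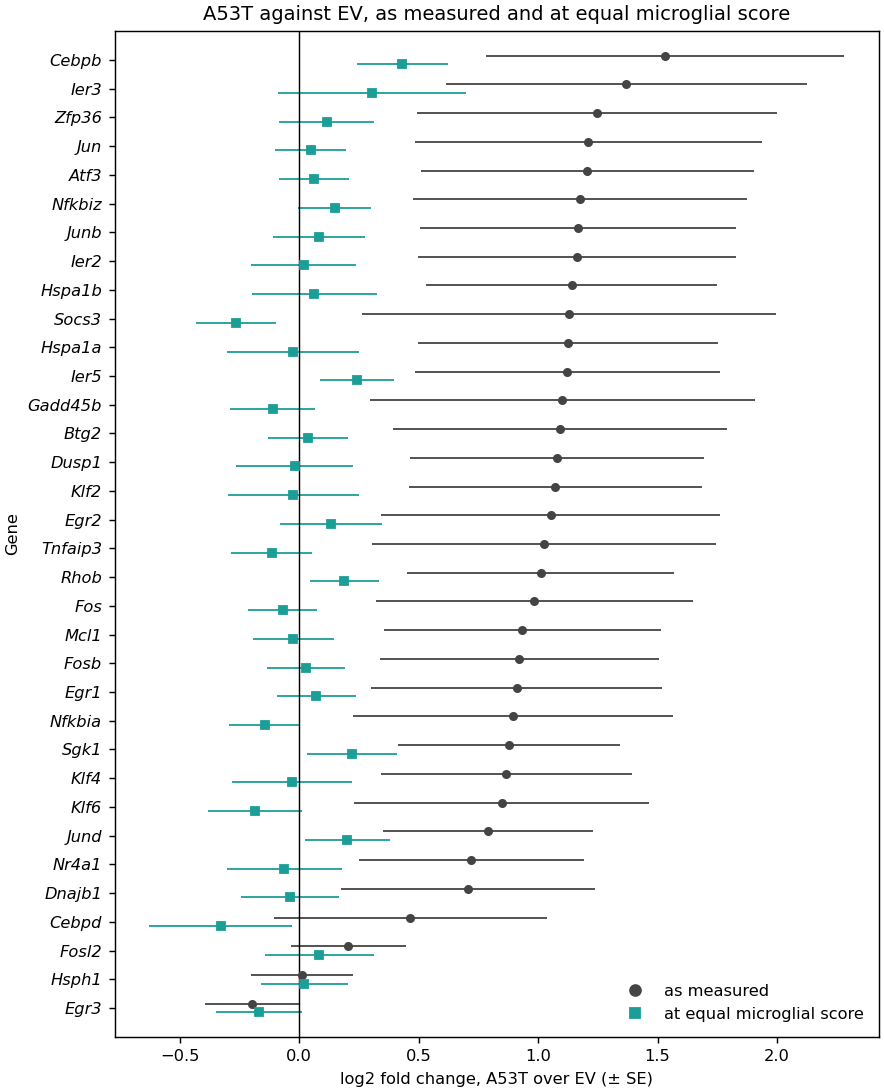
log2 fold change of A53T over EV with its SE for the 34 genes, as measured (grey circles) and at equal microglial score (teal squares). As measured the values lie between -0.20 and 1.53, and at equal score between -0.33 and 0.43.

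The slope itself was compared between the groups. For Fos it was 0.87 in A53T and 0.87 in EV, for Jun 0.94 in A53T and 0.93 in EV, and for Socs3 1.18 in A53T and 1.32 in EV. For Hspa1a it was 0.89 in A53T and 0.50 in EV, the largest difference of the 34 in that direction. The test of the difference (edgeR, group by score term) called none of the 34 and 0 of all genes tested (0%), with adjusted p-values of at least 0.910. At an unadjusted p under 0.05 there was 1 of the 34, Nr4a1 (0.64 in A53T and 0.26 in EV), and 4.34% of all genes.

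The neuron score, the mean log2 CPM of 15 neuronal genes, ran against the microglial score (6.44, 7.07, 5.18, 4.58 and 7.06 in A53T replicates 1 to 5, against 7.17, 7.11, 6.49, 6.71 and 6.45 in EV replicates 1 to 5). No gene of the 34 rose with it, which 16.5% of all genes tested did. 31 fell with it, beside 13.9% of all genes (edgeR quasi-likelihood test). These were 30 of the genes that rose with the microglial score, without Dnajb1 (slope -0.83 ± 0.29, SE, adjusted p = 0.0555), together with Fosl2 (slope -0.36 ± 0.11, SE, adjusted p = 0.0212). Only 14 were called without A53T replicates 3 and 4. As the scores oppose each other, their parts in a slope cannot be told apart by fitting each alone.

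Other genes of the same pathways were divided. Of 28 further immediate early genes, 12 rose with the microglial score, 5 fell and 11 did not pass. Those that rose included Trib1, a pseudokinase (0.82 ± 0.071, SE), Maff, a small Maf factor (1.02 ± 0.10, SE), and Myc (1.03 ± 0.11, SE). Those that fell included Arc, a synaptic protein induced by neuronal activity (slope -0.66 ± 0.11, SE), Klf9 (-0.44 ± 0.077, SE) and Homer1, a scaffold of glutamate synapses (-0.48 ± 0.10, SE). Arc was at 78.4, 175, 24.2, 14.0 and 128 CPM in A53T replicates 1 to 5, against 179, 152, 110.3, 86.2 and 81.7 CPM in EV replicates 1 to 5. It was lowest in A53T replicate 4 and highest in EV replicate 1, the groups overlapped, and it rose with the neuron score (slope 1.37 ± 0.10, SE, edgeR adjusted p = 6.59e-07).

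Of 21 further feedback inhibitors, 14 rose, 2 fell and 5 did not pass, with a median slope of 0.56. Those of smallest p were Ppp1r15a, which reverses the translation block of the stress response (0.93 ± 0.060, SE), Rgs1, a regulator of G protein signalling in immune cells (1.10 ± 0.076, SE), and Pim1 (1.09 ± 0.097, SE). Spry2 and Spred1, inhibitors of growth factor signalling, fell (-0.24 ± 0.060, SE and -0.23 ± 0.080, SE). Of 18 further heat shock genes, 7 rose, 1 fell and 10 did not pass, with a median slope of 0.14. Bag3, a co-chaperone of Hsp70, had the highest slope of these (0.41 ± 0.071, SE), followed in p by Hsp90aa1 (0.28 ± 0.057, SE) and the constitutive Hsp70 gene Hspa8 (0.23 ± 0.053, SE), while Hspa4l fell (-0.30 ± 0.061, SE).

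Cytokine and activation genes that microglia are known to express after isolation lay at the steep end. Of 14, 12 were tested and all 12 rose, with a median slope of 1.27, among them the chemokine gene Ccl3 (1.27 ± 0.065, SE), the interleukin-1 gene Il1a (1.15 ± 0.060, SE) and Cd83 (1.08 ± 0.059, SE). The interval lay above 1 for 5 of these 12, beside 0.35% of all genes tested and 1 of the 34. Ccl3 was at 54.5, 4.05, 115, 196 and 16.7 CPM in A53T replicates 1 to 5, against 4.01, 16.5, 12.4, 38.8 and 67.1 CPM in EV replicates 1 to 5. It was lowest in A53T replicate 2 and EV replicate 1 and highest in A53T replicates 3 and 4.

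**Figure D5:**
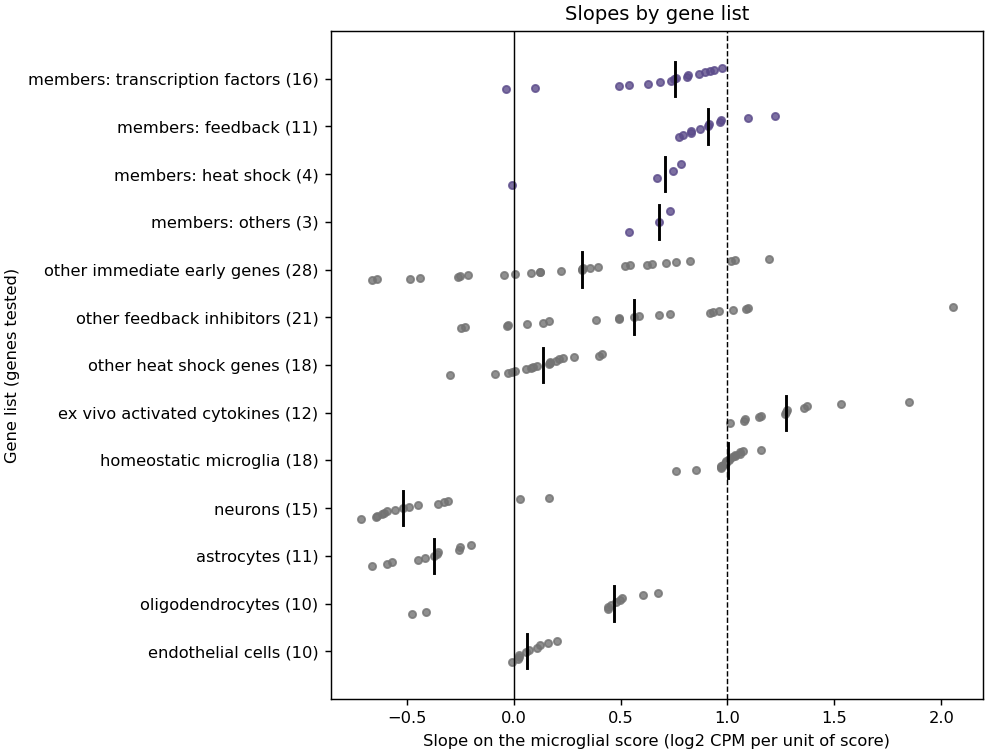
Slope on the microglial score (log2 CPM per unit of score) of each gene tested, by list, with a black bar at the median and lines at 0 and 1. The 34 genes (purple, in 4 rows by role) lie mostly between 0.49 and 1.22. Their median (0.79) lies below those of the cytokine list (1.27) and of the microglial list that makes up the score (1.00). Slopes of the cytokine list start at 1.01, so Socs3 and Gadd45b overlap it. The median of the other heat shock genes is 0.14, and those of neurons (-0.52) and astrocytes (-0.37) lie below 0.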

How the data were processed

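Bulk RNA was sequenced in 5 A53T and 5 EV libraries. The authors deposited raw read counts per gene with a combined exon length in bases, and rlog values, regularised log2 counts made by the authors from those counts. Per the submitters' processing notes, the mouse build was GRCm38.p6, and DESeq2 1.24.0, featureCounts 1.6.4, STAR 2.7.2b and cutadapt 2.5 were used. The counts hold no molecular identifiers, so PCR copies count as reads.

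Counts were scaled by TMM, and genes were kept by filterByExpr (17409 of 45906). They were tested with edgeR 4.0.16 (quasi-likelihood, R 4.3.3) and Benjamini-Hochberg adjustment over all genes, with an adjusted p of 0.05 as threshold. Models held the group alone, the group with the microglial or neuron score, or the group by score interaction. Scores are means of log2 CPM with a prior count of 2. Single values and correlations used permutation tests over libraries (exact for single values, 100000 resamples for correlations). DESeq2 1.42.0 and limma 3.58.1 were alternatives. The fits of the group and of the slope were run on simulated data. The spread of these data was estimated with the score in the model, so they do not show the power of the test of the group alone.

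Values in every library are given for Fos, Jun, Egr1, Dusp1, Nfkbia, Hspa1a, Hspa1b and Klf2 and for the 4 genes of highest and the 4 of lowest slope, and of each pathway list up to 3 genes of smallest p in each direction are named. The members, marker lists and rules were chosen with earlier results of these data known. The labels do not say whether a library is 1 mouse or a pool, so p-values measure the spread between these libraries. Promoters are RefSeq windows.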

Additional observations from a re-analysis of the deposited data

How the results depend on the processing

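Members called on the microglial slope numbered 30 or 31 in every alternative run, and Ier3 was the gene lost, with a replicate block and without A53T replicates 3 and 4 together (adjusted p = 0.0599 in both). Libraries of the same replicate number showed no consistent likeness (correlations of deviations from the group mean of -0.37 to 0.31). Whether they were handled together cannot be told from this. The block left 928 genes with positive and 380 with negative slopes and 1 gene between the groups. Slopes with the block were -0.011 for Fosl2, 0.037 for Egr3 and 0.082 for Hsph1. Without A53T replicates 3 and 4, 847 genes had positive and 426 negative slopes (Fosl2 -0.045, Hsph1 0.072), and with a salivary term 1569 and 1594 (Hsph1 0.12). Leaving out 1 library gave 1684 to 3365 positive and 1562 to 3035 negative calls, both lowest without A53T replicate 2, and slopes of -0.025 to 0.028 for Hsph1.

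For A53T against EV, 1 gene was called with DESeq2's test and without A53T replicates 3 and 4, and 0 or 1 without 1 library, none of the 34. Without A53T replicates 3 and 4 the log2 fold changes reversed for the median (-0.076), Fos (-0.11), Jun (-0.060), Egr1 (-0.15), Dusp1 (-0.0078), Nfkbia (-0.21), Klf2 (-0.083), Socs3 (-0.22), Gadd45b (-0.25), Fosl2 (-0.11) and Jund (-0.012). Hsph1, near 0, was -0.017 with DESeq2's size factors or test, -0.013 with the block, -0.032 on rlog values and -0.15 to 0.075 leaving out 1 library.

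At equal score, signs turned for Fos (0.015), Dusp1 (0.068), Hspa1a (0.054) and Klf2 (0.046) with a pan-myeloid score, Dusp1 (0.067), Hspa1b (-0.0073) and Hsph1 (-0.081) with the block, Hsph1 (-0.0049) with DESeq2's size factors and Fosl2 (-0.11) without A53T replicates 3 and 4. Leaving out 1 library gave -0.12 to 0.22 for Dusp1, -0.14 to 0.17 for Egr1, -0.055 to 0.17 for Fosl2, -0.22 to 0.18 for Hspa1a, -0.10 to 0.23 for Hspa1b, -0.13 to 0.061 for Hsph1, -0.044 to 0.11 for Jun and -0.17 to 0.20 for Klf2, with 0 or 1 gene called. Without the filter on low counts 0 genes were called at equal score and 2 on the slope difference. Neuron slopes were called for 1208 genes up and 707 down (14 members down) without A53T replicates 3 and 4, and 756 and 58 (2 members down) with the block. For the equal-score, slope-difference and neuron fits, the block (not run for the slope difference), DESeq2's size factors, no filter and leaving out A53T replicates 3 and 4 were added after seeing the data. The causes were not tested. DESeq2's size factors moved the median log2 fold change of all genes from 0.027 to -0.0057.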

Other observations

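Markers of oligodendrocytes, the myelin-forming cells, were divided on the microglial score. Of 10 tested, 8 rose, among them Mal and Opalin, and 2 fell, Mbp and Mobp, with a median slope of 0.47 (edgeR quasi-likelihood test). Mbp, which encodes myelin basic protein, had a slope of -0.41 and Mobp, another myelin gene, -0.47, against 0.48 for Mal and 0.68 for Opalin. These 4 genes were chosen after their values were seen. None of the 10 was called between A53T and EV. Neuron markers fell with the score for 13 of 15, and astrocyte markers for all 11. Of genes of other myeloid cells, 2 of 4 tested markers of border-associated macrophages and 1 of 5 of monocytes and neutrophils rose with the score. Their summed levels were 3.10 to 61.1 CPM in A53T and 3.37 to 18.4 CPM in EV for the macrophages, and 0.876 to 21.97 CPM in A53T and 2.35 to 26.7 CPM in EV for monocytes and neutrophils. Pericyte and smooth muscle markers rose for 1 of 8.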
